A study of Mus musculus with 6 samples.

Results

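The endoplasmic reticulum genes described here are 40 genes that work in the folding, oxidation, export for degradation, stress sensing and membrane entry of secretory and membrane proteins. They were taken by name for their known functions, and the rule used no measured value. The choice was nevertheless made with earlier results of these data known. All 40 were found once in the gene table by symbol, among 45659 genes with counts, and all 40 were among the 25157 genes with normalized values that were tested. By role, 12 were chaperones and their partners, 8 were disulfide enzymes and partners, 7 served ER-associated degradation (ERAD), 4 were stress sensors or their transcription factor and 9 belonged to the translocon.

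The libraries came from nephron progenitor cells, the fetal kidney cells that give rise to the nephron epithelium. The dams were CD-1 and the sires Six2 Cre tg/+, and after the plug the dams were put at random on a control diet or on food restriction until the embryos were taken at E18.5. The sample labels put the restricted diet at 30% of daily caloric intake, while the series text puts it at 70%, and the sources used here do not settle it. In both groups the cells were GFP-positive, sorted by FACS from kidneys digested with collagenase and dispase, and carried a Cre transgene that the Six2 promoter drives in nephron progenitors. There were 3 libraries per diet. The series text calls the libraries biological replicates, but the labels name no litter or embryo for any of them, and p-values therefore speak to the spread among 6 libraries.

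Proteins of the secretory pathway enter the endoplasmic reticulum through the Sec61 channel and fold there with the help of chaperones of the Hsp70 and Hsp90 families, the lectins calnexin and calreticulin, and protein disulfide isomerases. Proteins that fail to fold are drawn back to the cytosol and degraded, which is ERAD. When unfolded proteins build up, the sensors Ire1, Perk and Atf6 start the unfolded protein response, which raises the transcription of chaperone, disulfide isomerase and ERAD genes.

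Total counts per library were 10686582 to 12338593 in the controls and 6515127 to 16763479 in the food-restricted group. Food-restricted replicate 1 was the shallowest library and lay apart from the rest on the second principal component, at -30.1 on an axis that held 19.7% of the variance. Six2 stood between 4036 and 4380.0 normalized counts in the controls and between 3825 and 4083 under food restriction. Of other cell types, ureteric Ret was at most 10.3 normalized counts in any library and endothelial Pecam1 at most 77.5, while ureteric Hoxb7 had means of 221 and 147 in control and food-restricted libraries. The proximal tubule gene Lrp2 was not low, at 3896 to 4188 in the controls and 2248 to 2280 under food restriction. Neither was Col1a1, the highest of 9 renal stroma markers, at 938 to 957 in the controls and 1047 to 1218 under food restriction. Across all tested genes, the limma-trend test at a Benjamini-Hochberg adjusted p under 0.05 called 2.5% lower and 2.24% higher with food restriction. The 1193 calls in either direction became 748, 766 or 765 when control replicate 1, 2 or 3 was left out, and 736 or 564 when food-restricted replicate 2 or 3 was. Without food-restricted replicate 1 they went up instead, to 1357.

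Of the 40 genes, 12 fell with food restriction and 0 rose. At an unadjusted p under 0.05 there were 17, again with 0 higher. The share of all tested genes at that unadjusted p was not counted. The unadjusted counts here and below therefore have no background beside them. The 12 were the chaperones and partners Hspa5, Hsp90b1, Calr, Canx, Ppib, Hyou1, Dnajb11 and Manf and the disulfide isomerases Pdia3, Pdia4, Pdia6 and P4hb. Without food-restricted replicate 1, 11 members fell: 10 of these 12 (not Hyou1 and P4hb) and Dnajc3. Of the 20 ERAD, sensor and translocon genes 0 were called by limma-trend, and 0 by limma-voom, with 2 of them (Sel1l and Sec62) at an unadjusted p under 0.05. These genes are better expressed than most: 39 of the 40 had a mean of at least 100 normalized counts, and among the 10060 genes at that level 5.37% were called lower and 4.59% higher. The median log2 fold change was -0.13 over the 40 genes and -0.003 over all tested genes, and 34 of the 40 had a negative fold change. The 3 food-restricted libraries lay below all 3 controls for 19 of the 40 genes and above them for 1, Dnajb9. Over all tested genes 10.2% lay wholly below and 9.48% wholly above, and 15.3% of the better expressed genes lay wholly below.

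Calls were more frequent among the better expressed members. Of the 18 members with a mean of at least 1000 normalized counts 10 fell, and of the 22 below that level 2 fell. Among the 18, the calls were 6 of 6 chaperones, 4 of 6 disulfide enzymes, 0 of 1 ERAD genes and 0 of 5 translocon genes. The share called among all tested genes at that level was not computed, so these counts have no matching background. Standard errors were smaller at that level, 0.0363 to 0.0594 in the 18 against 0.0798 to 0.175 in the 22. In bulk RNA, fewer cells of a type in the sort and less RNA per cell cannot be told apart.

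**Figure D1:**
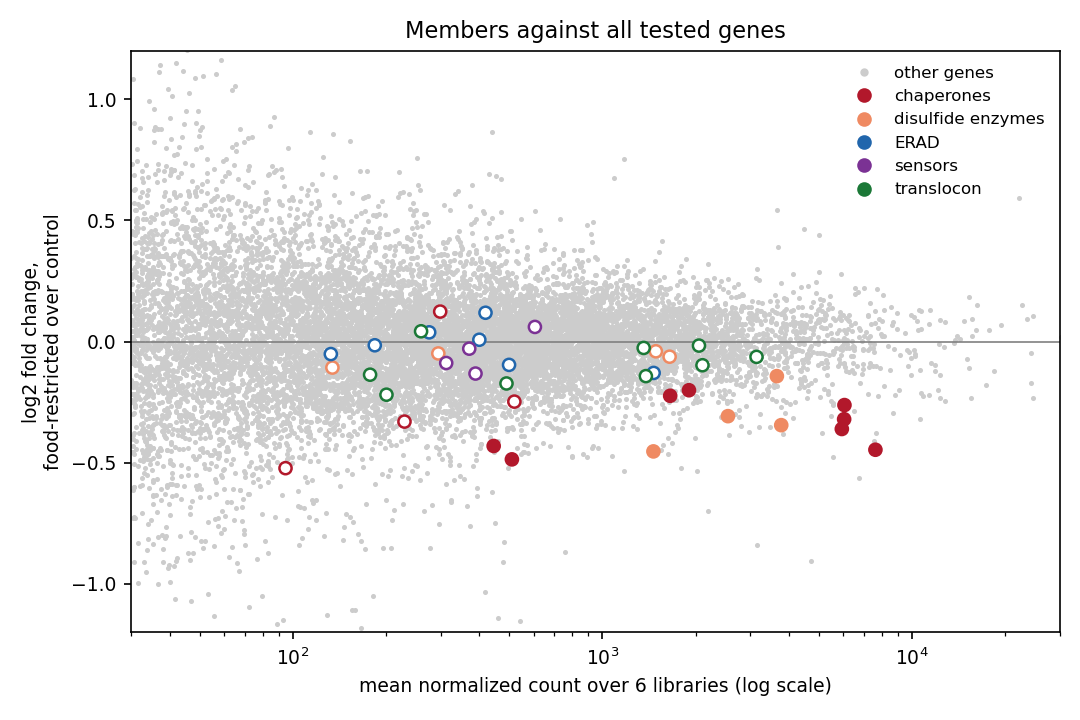
Log2 fold change (food-restricted over control) against mean normalized count over the 6 libraries on a log axis, with the 40 genes coloured by role over all other tested genes in grey; filled circles were called and hollow ones were not. The 10 called genes with a mean of at least 1000 lie below the zero line, while the 5 translocon genes at that level lie between -0.14 and -0.02; genes outside the axis ranges are not drawn.

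The transcription of many of these genes is known to run through a short promoter motif, the ER stress response element (ERSE), which was first defined on chaperone promoters such as that of Hspa5. It reads CCAAT, then 9 bases of any kind, then CCACG. A second form, ERSE-II, reads ATTGG and CCACG with 1 base between them, and the XBP1 and ATF6 target core TGACGTGG is called the UPRE. The 3 motifs were searched on both strands in promoter windows from 250 bases before to 50 bases after each annotated start, taken from RefSeq (GRCm38.p6). Only exact matches to these letters were counted, so copies that differ by 1 base were missed. Windows were found for 34 of the 40 genes; Hyou1, Manf, Derl1, Atf6, Sec61a1 and Ssr2 were not matched. ERSE was found in 8 of the 34 genes (Hspa5, Hsp90b1, Calr, Canx, Dnajc3, Creld2, Pdia6 and Syvn1) and in 0.137% of the 27025 genes with a window. ERSE-II was found in Dnajb11 and Herpud1 and in 0.0444% of all genes, and the UPRE core in Txndc5 and in 0.714% of all genes. No member's windows held more than 1 of the 3 kinds of motif. Either ERSE form was present in 6 of the 10 called genes with a window and in 4 of the 24 uncalled ones. By role the count was 7 of 10 chaperones, 1 of 8 disulfide enzymes, 2 of 6 ERAD genes, 0 of 3 sensors and 0 of 7 translocon genes.

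The windows below are printed 5′ to 3′ along the gene's strand, with the motif letters in capitals, to show the element in 5 called genes and in Syvn1, which was not called. Hspa5 lies at chr2:34771840-34772139 on the plus strand, Hsp90b1 at chr10:86705395-86705694 on the minus strand, Calr at chr8:84846882-84847181 on the minus strand, Pdia6 at chr12:17266339-17266638, Dnajb11 at chr16:22857595-22857894 and Syvn1 at chr19:6046326-6046625, the last 3 on the plus strand.
Hspa5: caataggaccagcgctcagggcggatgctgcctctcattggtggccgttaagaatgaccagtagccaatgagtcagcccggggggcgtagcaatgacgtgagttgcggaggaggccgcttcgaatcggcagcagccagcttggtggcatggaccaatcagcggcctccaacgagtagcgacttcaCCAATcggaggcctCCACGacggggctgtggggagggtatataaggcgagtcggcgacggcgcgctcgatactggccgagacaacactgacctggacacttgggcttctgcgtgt
Hsp90b1: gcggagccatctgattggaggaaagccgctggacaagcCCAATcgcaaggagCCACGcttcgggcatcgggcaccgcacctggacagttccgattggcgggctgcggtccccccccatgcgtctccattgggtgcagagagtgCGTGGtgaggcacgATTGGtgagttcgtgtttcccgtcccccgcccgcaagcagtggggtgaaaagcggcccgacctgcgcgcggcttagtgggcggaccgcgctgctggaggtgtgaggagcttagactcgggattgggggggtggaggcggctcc
Calr: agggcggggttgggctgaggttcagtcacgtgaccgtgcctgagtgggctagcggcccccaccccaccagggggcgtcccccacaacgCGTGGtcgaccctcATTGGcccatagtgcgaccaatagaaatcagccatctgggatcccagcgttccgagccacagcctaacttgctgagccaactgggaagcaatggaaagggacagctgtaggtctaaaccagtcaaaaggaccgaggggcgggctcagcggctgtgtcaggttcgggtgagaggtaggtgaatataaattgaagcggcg
Pdia6: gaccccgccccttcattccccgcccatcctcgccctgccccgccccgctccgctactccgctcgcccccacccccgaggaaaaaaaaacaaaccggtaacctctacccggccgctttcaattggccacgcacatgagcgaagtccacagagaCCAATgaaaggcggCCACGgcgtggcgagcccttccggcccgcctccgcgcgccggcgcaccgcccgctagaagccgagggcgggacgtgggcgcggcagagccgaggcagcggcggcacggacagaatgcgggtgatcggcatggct
Dnajb11: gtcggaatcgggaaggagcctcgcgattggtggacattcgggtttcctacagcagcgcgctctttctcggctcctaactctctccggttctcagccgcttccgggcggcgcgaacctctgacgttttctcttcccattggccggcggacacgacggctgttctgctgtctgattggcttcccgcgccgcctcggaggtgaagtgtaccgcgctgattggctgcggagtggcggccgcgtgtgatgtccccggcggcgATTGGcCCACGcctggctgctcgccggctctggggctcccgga
Syvn1: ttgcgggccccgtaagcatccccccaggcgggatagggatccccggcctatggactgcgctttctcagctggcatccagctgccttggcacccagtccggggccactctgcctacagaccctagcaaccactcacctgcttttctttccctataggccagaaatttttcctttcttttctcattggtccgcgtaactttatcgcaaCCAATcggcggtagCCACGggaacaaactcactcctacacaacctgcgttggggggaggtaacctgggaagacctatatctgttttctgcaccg
Counted from the annotated start, the exact match lies 65 to 47 bases upstream in Hspa5, 162 to 144 in Calr, 98 to 80 in Pdia6 and 44 to 26 in Syvn1. Hsp90b1 holds 2 matches in opposite orientation, the first 212 to 194 bases upstream and the second 107 to 89, and the match of Calr is in the reverse orientation. The ERSE-II of Dnajb11 lies 7 to 17 bases downstream of its start. A match describes letters in the window and does not show that a factor bound there in these cells.

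The chaperones made the largest group of calls: 8 of 12 fell, with a median log2 fold change of -0.33 over the 12. Their summed normalized count lay between 34345 and 35754 in the controls and between 27166 and 27947 under food restriction, 20.7% lower on the means. Hspa5 encodes BiP, the Hsp70 chaperone of the ER lumen, which also holds the stress sensors inactive. It stood at 6805, 6594 and 6708 normalized counts in control replicates 1 to 3 and at 5449, 5423 and 5233 in food-restricted replicates 1 to 3. The lowest control lay well above the highest food-restricted library. Its log2 fold change was -0.32 (SE 0.0379, adjusted p = 4.45e-09).

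Hsp90b1 encodes Grp94, the Hsp90 of the ER, which folds integrins and Toll-like receptors. Its normalized counts were 9127, 8443 and 8790.0 in the controls and 6517, 6459 and 6361 under food restriction. The groups did not overlap, and the food-restricted libraries were the more tightly spaced. It fell by 0.45 on the log2 scale (SE 0.0363, adjusted p = 9.21e-15), the smallest adjusted p of the 40 genes in limma-trend. In the means this was 8787 ± 342 against 6446 ± 78.9 (SD, n = 3 each).

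Calr and Canx encode calreticulin and calnexin, the soluble and the membrane-bound lectin that hold newly made glycoproteins until their sugars are trimmed. Calr stood at 6888, 6715 and 6412 normalized counts in the controls and at 5118, 5257 and 5207 under food restriction. Canx stood at 6694, 6697 and 6399 in the controls and at 5644, 5590.2 and 5273 under food restriction. Both were separated by diet in every library. The log2 fold change was -0.36 for Calr (SE 0.0385, limma-trend adjusted p = 1.55e-10) and -0.26 for Canx (SE 0.0386, adjusted p = 1.51e-06). Hspa5, Hsp90b1, Calr and Canx were the 4 most expressed of the 40 genes per kilobase of exon in the controls.

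Among co-chaperones, Dnajb11 encodes ERdj3, a J-domain partner of BiP that binds unfolded clients. Its normalized counts were 634, 545 and 608 in the controls and 428, 431 and 414 under food restriction. The diets were separated by more than the range of the controls. It had the largest fall among the called genes, -0.49 on the log2 scale (SE 0.0848, limma-trend adjusted p = 4.82e-05). Manf encodes a small secreted protein that the ER releases under stress. It stood at 515, 509 and 510.4 in the controls and at 403, 386 and 350.2 under food restriction, a log2 fold change of -0.43 (SE 0.0887, adjusted p = 0.000689). The annotated span of Manf overlaps 2 better expressed genes, Vprbp on the other strand and Rbm15b on its own strand, whose mean levels were 342% and 339.8% of its own. Their log2 fold changes were 0.08 and -0.05, neither called. The sources used here do not say whether the authors' counting used strand, so reads of the overlapping stretches could be shared.

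Ppib and Hyou1 fell by less. Ppib encodes cyclophilin B, a prolyl isomerase that acts on collagen and other clients. It stood at 1823, 1747 and 1779.9 normalized counts in the controls and at 1539, 1573 and 1471 under food restriction, with a log2 fold change of -0.22 (limma-trend adjusted p = 0.00634). Hyou1 encodes Grp170, the nucleotide exchange factor of BiP. It stood at 2072, 2157 and 1882 in the controls and at 1708, 1774 and 1828 under food restriction, with a log2 fold change of -0.20 (adjusted p = 0.0167). For Hyou1 the lowest control and the highest food-restricted library lay close together. The call on Ppib was lost without control replicate 1 (adjusted p = 0.0599) and without food-restricted replicate 3 (adjusted p = 0.0839). The call on Hyou1 was lost without control replicate 1 or 2 or food-restricted replicate 1 or 2, with adjusted p of 0.115, 0.2, 0.0546 and 0.0671.

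The other 4 chaperones and partners were not called. Sdf2l1, a BiP cofactor and the member with the fewest counts, stood at 109, 102 and 125 normalized counts in the controls and at 81.0, 72.7 and 78.7 under food restriction (log2 fold change -0.52, limma-trend adjusted p = 0.0719). Creld2, a cysteine-rich ER protein induced by stress, stood at 254, 254 and 258 against 204, 215 and 191 (log2 fold change -0.33, adjusted p = 0.0914). Dnajc3, the J-domain protein p58IPK, stood at 528, 568 and 596 against 512, 458 and 454 (log2 fold change -0.25, adjusted p = 0.0783). For all 3 every food-restricted library lay below every control, and the estimates lie within the range of the called chaperones or beyond it, with wider errors. Dnajc3 was called when food-restricted replicate 1 was left out (adjusted p = 0.0302). Dnajb9 encodes ERdj4, a J-domain protein that holds Ire1 inactive and serves ERAD. It was the exception, at 304, 278 and 277 in the controls and 324, 307 and 306 under food restriction. Every food-restricted library lay above every control, by a margin smaller than the spread of the controls, and the fold change of 0.12 had a 95% interval of -0.08 to 0.33 (adjusted p = 0.626).

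**Figure D2:**
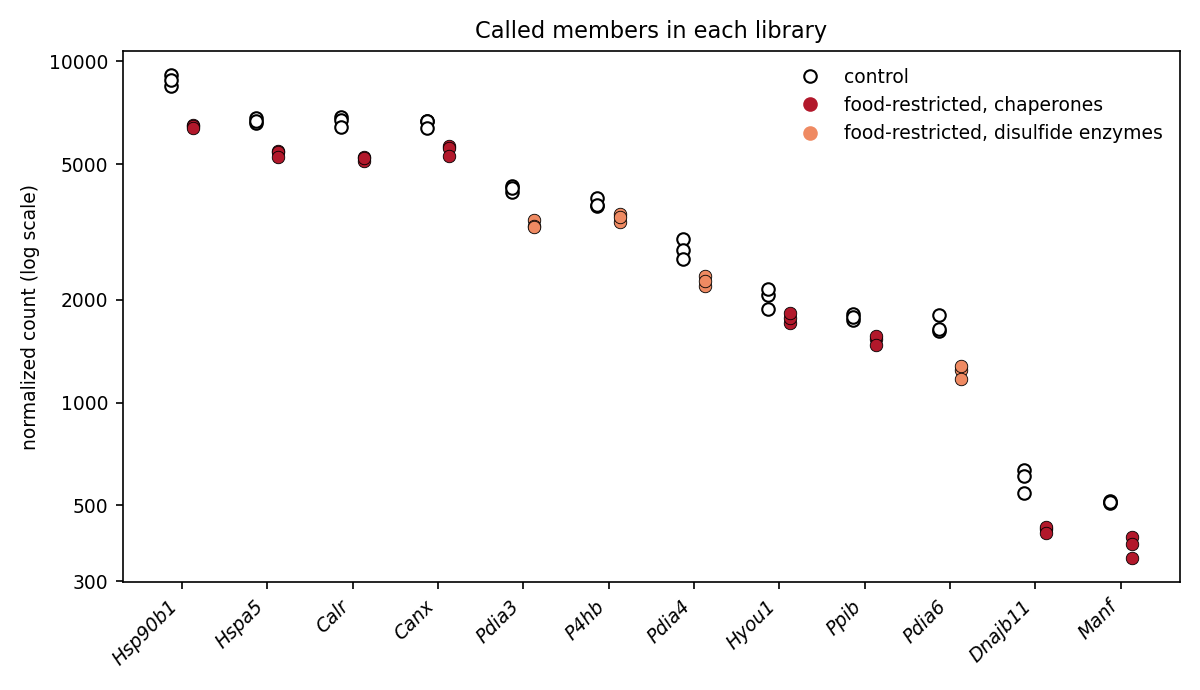
Normalized counts on a log axis of the 12 called genes in each of the 6 libraries, hollow for control and filled for food-restricted. For each of the 12 genes the 3 food-restricted points lie below the 3 control points, with the narrowest gap for Hyou1.

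Of the 8 disulfide enzymes and partners 4 fell and 4 were not called, with a median log2 fold change of -0.12. Pdia3 encodes ERp57, the isomerase that works with calnexin and calreticulin on glycoproteins. It stood at 4313, 4133 and 4244 normalized counts in the controls and at 3431, 3287 and 3274 under food restriction. The gap between the diets was wider than the spread within either. Its log2 fold change was -0.34 (SE 0.0432, limma-trend adjusted p = 2.54e-08). Pdia6 encodes P5, an isomerase found in complex with BiP. It stood at 1618, 1804 and 1646 in the controls and at 1245, 1278 and 1177 under food restriction, with a log2 fold change of -0.45 (SE 0.059, adjusted p = 6.31e-08).

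Pdia4 encodes ERp72, a further BiP-associated isomerase. It stood at 3007, 2798 and 2641 normalized counts in the controls and at 2348, 2195 and 2273 under food restriction, with a log2 fold change of -0.31 (SE 0.0502, limma-trend adjusted p = 1.3e-05). P4hb encodes the founding protein disulfide isomerase, which is also a subunit of collagen prolyl hydroxylase. It stood at 3979.8, 3758 and 3784 in the controls and at 3378, 3568 and 3490.4 under food restriction. Its libraries did not overlap between the diets, but its log2 fold change was the smallest of the called genes at -0.14 (SE 0.0438, adjusted p = 0.0415). That call was lost whichever single library was left out, with adjusted p of 0.0781 to 0.236, and under TMM scaling (0.0643) and upper-quartile scaling (0.0667).

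The uncalled disulfide enzymes and partners overlapped between the diets. Txndc5, a thioredoxin-domain isomerase, stood at 1560.2, 1503 and 1462 normalized counts in the controls and at 1482, 1425 and 1494 under food restriction, with a 95% interval for the log2 fold change of -0.15 to 0.07. Dnajc10 encodes ERdj5, a reductase that prepares misfolded proteins for ERAD. It stood at 1655, 1704 and 1691 against 1639, 1686 and 1515, with an interval of -0.17 to 0.05. These intervals do not reach the estimates of Pdia3, Pdia4 and Pdia6, which have similar or higher counts. Both do include the estimate of the called P4hb, -0.14. Ero1l, the oxidase that recharges the isomerases, had means of 300.1 and 290.2, and Pdia5 had means of 141 and 128. The intervals of Ero1l (-0.26 to 0.16) and Pdia5 (-0.43 to 0.21) are wide, and that of Pdia5 includes the estimate of Pdia3. The Pdia5 controls were themselves spread, at 169.7, 154 and 98.6 normalized counts.

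Of the 7 ERAD genes, 0 were called by limma-trend (1 at an unadjusted p under 0.05, 0 by limma-voom) and the median log2 fold change was -0.02. The summed normalized count of the 7 genes was nevertheless lower in every food-restricted library. It was 3246 to 3349 there against 3401 to 3468 in the controls, a difference of -3.72% on the means. Sel1l, the adaptor of the Hrd1 ubiquitin ligase, had the most counts of the group, at 1506, 1590.2 and 1493 normalized counts in the controls and 1398, 1420.1 and 1376 under food restriction. Its libraries did not overlap, and its log2 fold change of -0.13 had an adjusted p of 0.231 in limma-trend. Syvn1 encodes Hrd1 itself, the ligase that marks the clients. It stood at 422, 383 and 392 against 391, 421 and 392, a log2 fold change of 0.01 with an interval of -0.18 to 0.19. Syvn1 carries the ERSE letters printed above, as Hspa5, Hsp90b1 and Calr do, and its libraries overlapped.

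Herpud1, which brings ligase and channel together and is a sensitive target of the stress response, had means of 185 ± 26.6 and 183 ± 13.2 normalized counts (SD, n = 3 each). Edem1, a mannosidase-like protein that picks out clients, had the highest log2 fold change of the group at 0.12 (interval -0.06 to 0.30), and its relative Edem2 stood at -0.05. Derl1 and Derl2, derlins of the retrotranslocation channel, stood at -0.10 and 0.04. Derl2 overlaps Mis12 and Syvn1 overlaps Mrpl49 on the other strand, with mean levels of 133% and 79.9% of the member, so that counting without strand could mix them.

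The 4 sensor genes gave 0 calls in limma-trend, 0 at an unadjusted p under 0.05 and 0 in limma-voom, and a median log2 fold change of -0.06. Xbp1, whose spliced form is the transcription factor downstream of Ire1, stood at 337, 311 and 315 normalized counts in the controls and 336, 246 and 332 under food restriction. Food-restricted replicate 2 alone was low, and without it the log2 fold change of -0.09 became 0.06. The counts per gene do not separate spliced from unspliced Xbp1. Atf6, the sensor that is cut to release a transcription factor, stood at 598, 621 and 558 against 572, 620.3 and 662 (log2 fold change 0.06, interval -0.10 to 0.22). Ern1, which encodes Ire1, stood at 379, 357 and 387 against 317, 414 and 375 (log2 fold change -0.03, interval -0.23 to 0.17). Eif2ak3, which encodes Perk, stood at 406, 423 and 392 against 368, 367 and 378. Its libraries did not overlap, and its log2 fold change of -0.13 had an adjusted p of 0.54 in limma-trend.

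The translocon also gave 0 calls of 9 in limma-trend (1 at an unadjusted p under 0.05, 0 in limma-voom), with a median log2 fold change of -0.10. Sec61a1, the pore of the Sec61 channel, stood at 1396, 1423 and 1296 normalized counts in the controls and 1304, 1354 and 1380.3 under food restriction, a log2 fold change of -0.03 with an interval of -0.14 to 0.09. Sec63, the J-domain protein that brings BiP to the channel, stood at 2031, 2068 and 2084 against 2061, 2135 and 1922, with an interval of -0.12 to 0.09. Ssr3, a subunit of the translocon-associated protein complex (TRAP), stood at 3310.3, 3088 and 3241 against 3283, 2927 and 3024, with an interval of -0.16 to 0.03. The libraries of the diets overlapped for all 3, and their intervals do not reach the estimates of Hspa5, Hsp90b1, Calr and Canx. The intervals of Sec61a1 and Ssr3 include the smaller estimate of the called P4hb, and that of Sec63 does not.

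The small channel subunits Sec61b and Sec61g had log2 fold changes of -0.14 and -0.22 with wide intervals (-0.41 to 0.13 and -0.47 to 0.03). Sec62, a partner of Sec63, stood at 1445, 1419 and 1484 normalized counts against 1387, 1247 and 1307 (log2 fold change -0.14, limma-trend adjusted p = 0.186). The Sec62 interval of -0.26 to -0.02 includes the estimates of the called Ppib, Hyou1 and P4hb. The TRAP subunits Ssr1, Ssr2 and Ssr4 stood at -0.10, -0.17 and 0.04. Sec62 and Ssr2 did not overlap between the diets and were not called, and the other 7 translocon genes overlapped. The summed normalized count of the 9 genes was nevertheless lower in every food-restricted library, at 10535 to 11255 against 11407 to 11492 in the controls, a difference of -4.87% on the means. Ssr4 is X-linked, and the labels do not give the sex of the embryos. The X-inactivation transcript Xist lay at 16741 to 18395 in the controls and 25999 to 27067 under food restriction, and Y-linked Ddx3y at 691 to 807 and 320.0 to 361. Diet and embryo sex cannot be told apart in these libraries.

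**Figure D3:**
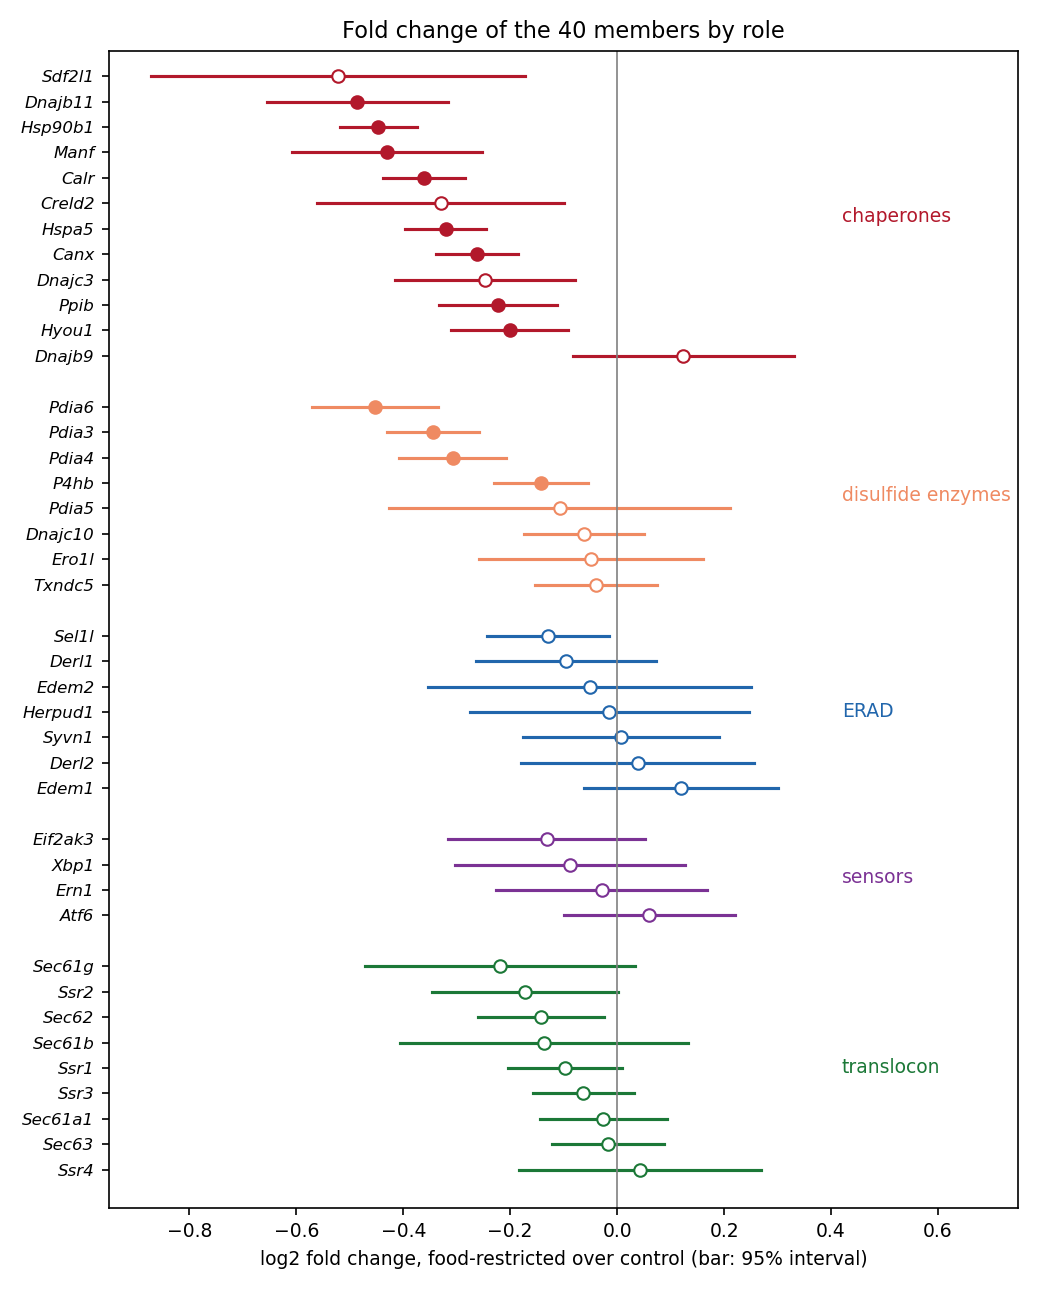
Log2 fold change of each of the 40 genes (food-restricted over control) with its 95% interval from limma-trend, grouped by role; filled circles were called. The filled circles are 8 chaperones and 4 disulfide enzymes, and Dnajb9 is the single chaperone to the right of the zero line.

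Ratios of summed counts within a library do not depend on how the libraries were scaled. The chaperones held 3.12, 3.01 and 3.01 times the counts of the translocon genes in control replicates 1 to 3 and 2.48, 2.57 and 2.58 times in food-restricted replicates 1 to 3. Set against the ERAD genes they held 10.04 to 10.31 times the counts in the controls and 8.34 to 8.37 times in the food-restricted libraries. The disulfide enzymes held 1.39 to 1.45 times the translocon counts in the controls and 1.24 to 1.29 times in the food-restricted libraries, and 4.67 to 4.78 against 4.14 to 4.20 times the ERAD counts. Each of these 4 ratios was lower in every food-restricted library than in every control. Because the genes were chosen with earlier results known, the ratios are given without a test.

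**Figure D4:**
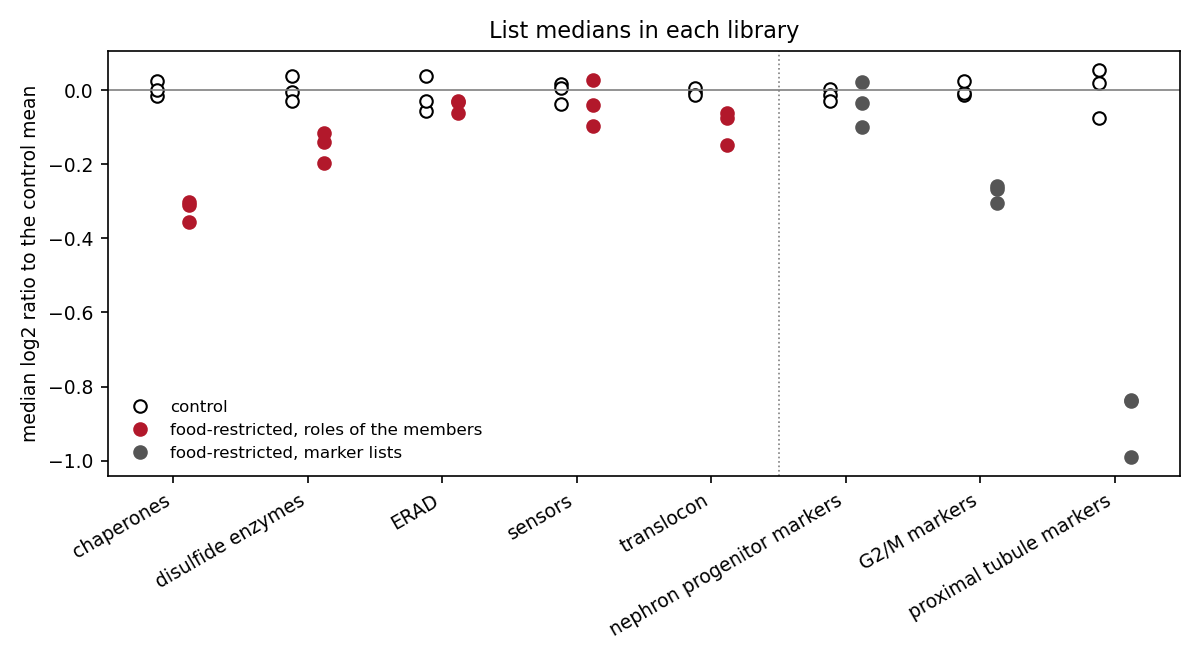
Median log2 ratio to the control mean of each role group and of 3 marker lists, 1 point per library, hollow for control and filled for food-restricted. The chaperone medians are -0.36 to -0.30 in the food-restricted libraries and the disulfide medians -0.20 to -0.11, the translocon medians are -0.15 to -0.06, below the control points at -0.01 to 0.005, and those of the sensors and the ERAD genes overlap the control points; the G2/M markers are at -0.30 to -0.26 and the proximal tubule markers at -0.99 to -0.84.

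As a share of all counts, the 40 genes took 0.606%, 0.579% and 0.582% of the control libraries and 0.506%, 0.514% and 0.512% of the food-restricted ones. Their summed normalized count was 15.3% lower on the means. The 12 called genes were 20.2% lower together and the 28 uncalled genes 4.67% lower. Per kilobase of annotated exon, the highest levels in the controls were those of Calr and Hsp90b1, at 202 and 189.6 CPM (counts scaled to each library's total), followed by Hspa5 at 138, Canx at 122, Pdia3 at 117, P4hb at 117 and Pdia4 at 102. In the food-restricted libraries Calr stood at 161 and Hsp90b1 at 142 on the same scale, and P4hb, at 108, stood above Canx at 104. The 4 sensor genes stood at 3.98 to 8.603 in the controls.

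Over the 40 genes the fold change was related weakly to level and more strongly to length, with shorter genes tending to lower fold changes. Pearson's r of the log2 fold change with log2 mean level was -0.27 (Spearman's rho -0.32), with log10 exonic length 0.42 (rho 0.39) and with GC content -0.12 (rho -0.08). These are descriptions across genes, which are not independent replicates, and the fold changes share 6 libraries. With the trend of each library against length removed, 11 of the 12 genes were still called, all but P4hb. With the trends against length and GC content removed, all 12 were.

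The authors' deposited table, which holds their own DESeq2 comparison, called 12 of the 40 genes lower and 0 higher at an adjusted p under 0.05, and they were the same 12. Over all genes the authors' deposited table held 439 lower and 360 higher. The largest difference between the log2 fold changes in the authors' deposited table and those given here was 0.0409 for any of the 40 genes. Both comparisons use the same libraries and are not independent of each other.

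Among 121 other genes of the same compartment and its neighbours, grouped in 7 lists by function, 5 fell and 1 rose, and their median log2 fold change was -0.05. That is 4.13% called lower, against 5.37% of all tested genes with a mean of at least 100 normalized counts, a level that 109 of the 121 reached. Of 17 other folding factors 1 fell, Serpinh1, the collagen chaperone Hsp47, at 6114, 5797 and 5606 normalized counts in the controls and 5169, 5276 and 5082 under food restriction (log2 fold change -0.17, limma-trend adjusted p = 0.00273). Of 16 other thiol enzymes 2 fell. They were Erp29, a thioredoxin-fold chaperone (log2 fold change -0.24, adjusted p = 0.0286), and Tmx1, a membrane-bound thioredoxin (-0.25, adjusted p = 0.0402). Of 18 N-glycosylation genes 1 fell: Rpn1, ribophorin I of the oligosaccharyltransferase, stood at 1698, 1712 and 1673 in the controls and 1350.3, 1445 and 1464 under food restriction (-0.26, adjusted p = 0.00179). Of 18 targeting and translocation genes 1 fell, Srp54b (-0.48, adjusted p = 0.0258), which has near-identical copies and is therefore uncertain. Of 19 other ERAD genes and 20 ER-to-Golgi traffic genes 0 were called by limma-trend or limma-voom, with 0 and 2 at an unadjusted p under 0.05. Ufd1l and Ern2, which also stood on these lists, had no tested value. The 5 lower calls became 1, 2 and 2 without control replicate 1, control replicate 2 and food-restricted replicate 3.

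Of 13 other stress signal genes 1 was called, and it rose. Ppp1r15a encodes Gadd34, the phosphatase subunit that ends the translation block set by Perk and related kinases. It stood at 538, 465 and 481 normalized counts in the controls and at 697, 691 and 766 under food restriction. The diets were far apart, with a log2 fold change of 0.54 (SE 0.0804, limma-trend adjusted p = 2.07e-06). The factors that stand upstream of it in the Perk branch were not called: Atf4 had means of 1561 and 1614 (adjusted p = 0.769) and Ddit3, which encodes Chop, had means of 117 and 119 (adjusted p = 0.97). Atf6b, the relative of Atf6, had means of 583 and 495 and was not called (-0.24, adjusted p = 0.0945). It was 1 of 2 genes on the list with a negative fold change, while 11 of the 13 had a positive fold change. The median log2 fold change of the list was 0.05, and its summed normalized count was 3.05% higher on the means. The list medians of the single libraries overlapped, at 0.05 to 0.11 under food restriction and -0.02 to 0.07 in the controls.

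**Figure D5:**
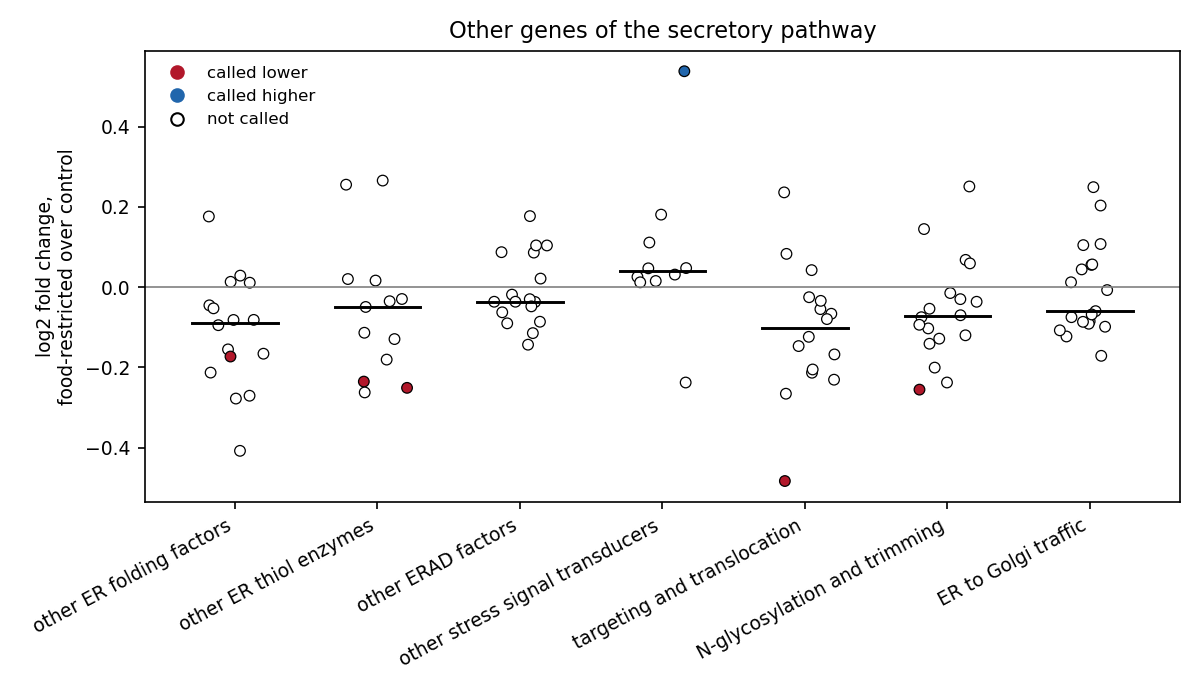
Log2 fold change (food-restricted over control) of the other secretory pathway genes with a mean of at least 100 normalized counts, by list, with the median of the plotted genes as a bar; sideways position within a list has no meaning. The 5 genes called lower lie in 4 of the 7 lists, and the single gene called higher is Ppp1r15a at 0.54.

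Other gene groups moved alongside the chaperones. Of 10 proximal tubule markers 9 fell, and their summed normalized count lay between 5856 and 6272 in the controls and between 3327 and 3374 under food restriction. Of 10 G2/M markers 5 fell, and their sum lay between 24190.1 and 24401 in the controls and between 19118 and 19490.0 under food restriction, 20.7% lower on the means. Of 10 macrophage markers 3 rose (sum 117 to 158 in the controls and 261 to 285 under food restriction). Of 9 renal stroma markers 4 rose (sum 2045 to 2080 in the controls and 2465 to 2770 under food restriction). Of 6 podocyte markers 1 fell, Podxl (log2 fold change -0.99, limma-trend adjusted p = 0.0209). Of 6 ureteric markers 1 fell, Hoxb7 (log2 fold change -0.59, limma-trend adjusted p = 0.00151), and their sum lay between 280.3 and 299.8 in the controls and between 179.6 and 252 under food restriction. Hoxb7 made up most of that sum, with means of 221 and 147 against 288 and 220 for the 6 together. Of the 6 ureteric markers, 3 had a negative and 3 a positive fold change. Of 9 nephron progenitor markers 2 fell (Meox1 and Itga8) and 1 rose (Pax2), and their sum was 1.15% lower. The part of these groups in the fall of the chaperones and disulfide enzymes was not tested.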

How the data were processed

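RNA was measured in 6 libraries of sorted nephron progenitor cells, 3 per diet, grouped by the diet label. The submitters' processing notes name TopHat2 (version 2.1.1), HTSeq (version 0.6.0), cutadapt (version 1.18), bcl2fastq (version 2.18.0.12) and DESeq2 (version 1.22.1), and build GRCm38; they do not give the strand setting. In the deposited table are whole-number read counts per gene, the authors' normalized signal (each count divided by 1 size factor per library) and the authors' own log2 fold changes, test score, p-values and adjusted p-values. Genes without a value carry a text mark, so these columns were not treated as plain counts for a count model; edgeR was not used and DESeq2 was not run anew.

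The normalized counts of all 25157 genes were tested in R 4.3.3 with limma 3.58.1. The log2 of each value plus a pseudocount of 1 was fitted on diet alone (limma-trend, two-sided), and a call needed an adjusted p under 0.05 by Benjamini-Hochberg over all genes. Fold changes are on that log2 scale, which understates the change of low genes. Summaries were made with Python 3.11.15, pandas 2.3.3 and numpy 2.4.6, and the fit was tested on simulated data. Exon lengths come from GENCODE M21 and promoter windows from RefSeq.

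The genes named are the 40 members and, of the other pathway lists, all called genes where a list had 5 or fewer in a direction; Atf4, Ddit3 and Atf6b were named after their values were seen. The members and lists were chosen with earlier results of these data known. Intervals and counting precision cover these libraries only: the members had 46 to 9898 counts per library. Alternatives were other scalings, pseudocounts and filters, limma-voom, a replicate block, leaving out each library and removing length and GC trends.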

Additional observations from a re-analysis of the deposited data

How the results depend on the processing

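Over 16 alternatives the members called lower numbered 9 to 13 and the members called higher 0, and 9 of the 12 (Hspa5, Hsp90b1, Calr, Canx, Dnajb11, Manf, Pdia3, Pdia4 and Pdia6) were called in every one. Leaving out single libraries moved the calls over all genes from 1193 to between 564 and 1357, the other pathway genes called lower from 5 to between 1 and 7, and the members called lower to between 9 and 11. The other pathway genes called higher went from 1 to 2 with upper-quartile scaling, with a mean of at least 10 normalized counts and with length and GC trends removed, and to 3 with a mean of at least 50. Dnajc3 joined the called members with a mean of at least 50 (adjusted p = 0.0498). Replicate numbers did not pair the libraries: deviations of same-numbered libraries correlated at -0.037, 0.012 and -0.003. With the replicate block 980 genes were called, 11 members fell (all but P4hb, adjusted p = 0.102) and 3 other pathway genes fell. The cause of these moves was not tested beyond the fewer libraries or genes each leaves.

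Only uncalled genes changed sign, with log2 fold changes in the main fit from -0.11 (Pdia5) to 0.04 (Ssr4). With limma-voom Edem2 went to 0.0056 and Ern1 to 0.021, with the length trend removed Herpud1 went to 0.017, and with length and GC trends removed Syvn1 went to -0.053. With single libraries left out, the log2 fold change ran from -0.34 to 0.045 for Pdia5, -0.094 to 0.098 for Herpud1, -0.028 to 0.048 for Syvn1, -0.16 to 0.049 for Edem2, -0.048 to 0.091 for Derl2, -0.17 to 0.059 for Xbp1, -0.12 to 0.075 for Ern1, -0.066 to 0.00085 for Sec61a1, -0.050 to 0.026 for Sec63 and -0.029 to 0.15 for Ssr4. The edgeR and DESeq2 alternatives were not run. Genes with few counts, such as Sdf2l1, Pdia5 and Edem2, have wide intervals; how much of that is counting error was not tested.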
